A study of Mus musculus with 2 samples.

Results

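The glutathione transferases attach glutathione to reactive compounds, and 10 of their genes were followed in adipose tissue of mice on a high fat diet and mice on a normal diet. The genes were Gsta3 and Gsta4 of the alpha class, Gstt1 and Gstt2 of the theta class, Gstm1 and Gstm2 of the mu class, Gstk1 (kappa), Gstz1 (zeta), Gsto1 (omega) and the membrane-bound Mgst1 (MAPEG, the family of membrane proteins in eicosanoid and glutathione metabolism). They were chosen by name, and a gene was measured by the probe sets (groups of short probes on the array) annotated with its symbol alone. There were 16 such probe sets for the 10 genes, out of 34945 probe sets for 18193 genes in all.

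Healthy mice of the inbred strain C57BL/6 received the high fat diet HFD32 (HFD), or the normal diet CE-2 as the control (ND), from 6 to 18 weeks of age, after which total RNA was taken from adipose tissue. Each diet is represented by 1 Affymetrix array carrying RNA pooled from 3 animals, so the spread between animals is unknown and there is no replicate check. The design allows no test between diets, and every difference compares 2 pools. Neither the fat depot nor the sex of the animals is stated in the labels.

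Glutathione transferases of the cytosolic classes conjugate electrophiles such as epoxides and the aldehydes that arise when membrane lipids are oxidised, and the conjugates are then exported from the cell. Liver is rich in several classes. In fat cells Gsta4 is known as the main enzyme conjugating hydroxynonenal, an aldehyde from lipid peroxidation. Members of the kappa, zeta and omega classes have other substrates and functions, which are named with their values.

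Values are log2 signals, and a difference is the HFD value minus the ND value, so that a difference of -1 is a signal 2-fold lower on the high fat diet. A gene stands in the text by its brightest probe set. Genes whose mean over both arrays reached 5.44, the median of all probe sets that are no controls (the floor), were compared, 11778 in all, and all 10 transferase genes passed. Background was taken from 81 probe sets of olfactory, vomeronasal and taste receptor genes, whose 95th percentile was 4.96 on the HFD array and 4.94 on the ND array. Adipoq, the adiponectin gene that defines fat cells, had 14.12 on the HFD array and 14.21 on the ND array, close to the highest values of both. The only error that the arrays give is the spread between probe sets of the same gene, an SD of 0.27 in the difference over 5131 genes, and it covers probes alone.

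Of the 10 transferase genes, 3 were at least 2-fold lower on the HFD array, Gsta4, Gsta3 and Gstt1, while 3.29% of all genes compared were. In the other direction 0 of 10 reached 2-fold, against 3.28% of all genes. The difference was below 0 for 9 of the 10, against 49.3% of all genes, and Gsto1 was the exception. The median difference of the 10 genes was -0.31, beside 0 for all genes. By class, the alpha genes had -1.99 and -1.90, the theta genes had -1.64 and -0.78, and the mu, kappa, zeta and MAPEG genes lay between -0.33 and -0.13.

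**Figure D1:**
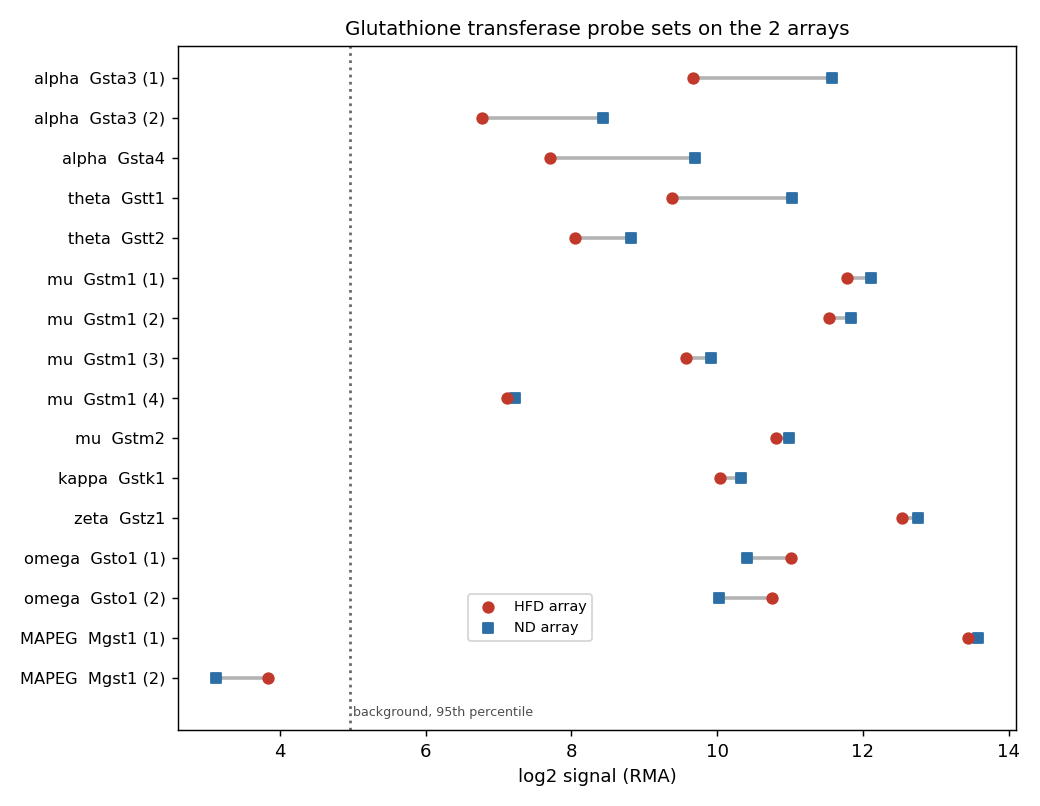
Log2 signal (horizontal axis) of the 16 probe sets of the 10 transferase genes, with red circles for the HFD array and blue squares for the ND array, 1 array each; numbers in brackets count the probe sets of a gene from bright to dim. The circles lie left of the squares by 1.64 or more in the alpha genes' first probe sets and in Gstt1, and right of them in Gsto1 and in the dim probe set of Mgst1, which lies under the dotted background line.

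Promoter sequences are shown for the genes at least 2-fold lower that have an entry in the RefSeq promoter table (build GRCm38.p6) and for Gsto1, the gene that was higher, so that both directions can be read beside their start sites. Each runs 5′ to 3′ from 250 bases before to 50 bases after the transcription start. Capitals mark matches, on either strand, to the core of the antioxidant response element bound by NRF2 (TGACNNNGC), to the GC box (GGGCGG), to the TATA box (TATAAA) and to the core of the site of the liver-enriched factor HNF1 (GTTAAT).
Gsta3, chr1:21240335-21240634, plus strand: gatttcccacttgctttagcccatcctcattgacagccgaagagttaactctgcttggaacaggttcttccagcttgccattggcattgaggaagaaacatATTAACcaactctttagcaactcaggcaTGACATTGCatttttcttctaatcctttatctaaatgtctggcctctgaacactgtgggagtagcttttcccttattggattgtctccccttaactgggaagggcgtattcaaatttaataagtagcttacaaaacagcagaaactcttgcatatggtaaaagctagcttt
Gstt1, chr10:75797682-75797981, minus strand: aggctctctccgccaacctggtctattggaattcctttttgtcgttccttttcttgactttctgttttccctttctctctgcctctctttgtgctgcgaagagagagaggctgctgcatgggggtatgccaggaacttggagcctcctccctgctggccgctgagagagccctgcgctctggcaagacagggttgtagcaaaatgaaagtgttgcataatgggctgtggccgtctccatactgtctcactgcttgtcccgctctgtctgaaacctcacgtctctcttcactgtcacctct
Gsto1, chr19:47854723-47855022, plus strand: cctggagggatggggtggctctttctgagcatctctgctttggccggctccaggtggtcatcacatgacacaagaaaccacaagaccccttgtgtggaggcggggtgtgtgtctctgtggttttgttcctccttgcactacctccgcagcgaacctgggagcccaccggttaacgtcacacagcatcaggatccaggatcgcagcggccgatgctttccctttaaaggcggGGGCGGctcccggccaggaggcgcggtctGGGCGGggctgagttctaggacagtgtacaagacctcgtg

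The Gsta3 window holds an antioxidant response element core that begins 121 bases before the start, TGACATTGC, and an HNF1 core on the minus strand, read as ATTAAC, 149 bases before it. The Gstt1 window holds none of the 4 motifs. The Gsto1 window holds 2 GC boxes, one beginning 19 bases before the start and one beginning 11 bases after it. The table held 11 windows for 8 of the 10 genes. The antioxidant response element core was found in 2 of these 11 windows (of Gsta3 and Mgst1) and in 12.4% of all 32851 windows of the table. The GC box was found in 5 of 11 windows, which belong to 4 genes, and in 35.7% of all windows. The TATA box was found in 1 of 11 windows (of Gstm1) and in 13.6% of all. The HNF1 core was found in 1 of 11 (of Gsta3) and in 7.10% of all. None of the motifs overlapped another in the shown windows. A match is a description of the letters and does not show binding.

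In the alpha class, Gsta4 had a log2 signal of 7.71 on the HFD array and 9.70 on the ND array, a difference of -1.99 and a signal 3.97-fold lower. Among all 11778 genes, 0.993% had a lower difference than Gsta4. It was measured by a single probe set, which is annotated to no other gene. Gsta3, an alpha-class enzyme that in mice detoxifies aflatoxin epoxide, had 9.67 on the HFD array and 11.57 on the ND array, a difference of -1.90 and a signal 3.73-fold lower. Its second, dimmer probe set read 6.77 and 8.44 in the same order, a difference of -1.67, so the probe sets differed from each other by less than the SD of 0.27. The difference between Gsta4 and Gsta3 themselves, 0.09, was smaller than that SD too, as was that of 0.26 between Gsta3 and Gstt1, so no order among these 3 genes can be read.

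In the theta class, Gstt1, which acts on small halogenated compounds such as dichloromethane, had 9.39 on the HFD array and 11.02 on the ND array, a difference of -1.64 and a signal 3.11-fold lower. Gstt2, which acts on sulfate esters, had 8.04 on the HFD array and 8.82 on the ND array, a difference of -0.78 and a signal 1.71-fold lower. The gap of 0.86 between the theta genes exceeded the probe set SD, and Gstt2 did not reach the 2-fold limit. For genes with 2 probe sets, the 95th percentile of the gap between them was 0.70. Each rests on 1 probe set.

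Of the mu class, Gstm1 and Gstm2 differed little between the arrays. Gstm1, an abundant cytosolic enzyme for epoxides and other electrophiles, had 11.78 on the HFD array and 12.11 on the ND array, a difference of -0.33. Its other 3 probe sets gave -0.30, -0.34 and -0.10, all of the same sign. The probe sets with -0.33 and -0.34 are of a type that can match several transcripts. Gstm2 had 10.81 on the HFD array and 10.99 on the ND array, a difference of -0.18. Neither lay outside the span from the 5th to the 95th percentile of all genes, -0.80 to 0.79.

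Gstk1, found in mitochondria and peroxisomes and also known as an aid to the assembly of adiponectin multimers, had 10.04 on the HFD array and 10.33 on the ND array, a difference of -0.29. Gstz1, the maleylacetoacetate isomerase of tyrosine breakdown, had 12.54 on the HFD array and 12.75 on the ND array, a difference of -0.21. Mgst1, an enzyme of the endoplasmic reticulum and outer mitochondrial membrane, had 13.45 on the HFD array and 13.58 on the ND array, a difference of -0.13. These 3 differences and those of Gstm1 and Gstm2 lay within 0.08 of their neighbours in order among these 5 genes and cannot be ranked. Gstz1 and Mgst1 lie at the bright end of the scale, where differences may be compressed, which was not tested. Of 311 genes with a mean level of 12 or more, a limit set after the values were seen, 0 were lower by 2-fold or more and 1.93% were higher by as much.

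Gsto1 stood alone in being higher. This omega-class enzyme transfers thiols and reduces dehydroascorbate, and it has little conjugating activity. It had 11.02 on the HFD array and 10.42 on the ND array, a difference of 0.60 and a signal 1.52-fold higher, below the 2-fold limit. Its second probe set gave 10.75 on the HFD array and 10.03 on the ND array, a difference of 0.72. The gap of 0.73 between Gsto1 and the next gene, Mgst1, exceeded the probe set SD. It was close to 0.70, the 95th percentile of the gap in difference between the probe sets of genes that have 2.

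The other genes of the family on the arrays were set beside these 10. Of 13 further transferase genes of the same classes and of the pi class, 10 passed the floor, and 9 of those 10 had a difference below 0, with a median of -0.52. The genes at least 2-fold lower were 3 in number, Gsta2, Gstt3 and Gstm7, while 3.29% of all genes compared were. Gsta2, an inducible alpha gene, had 3.87 on the HFD array, under background, and 7.67 on the ND array, and was at least 6.54-fold lower. Its transcript is close to that of Gsta1, so its probe set may read both. Gstt3 had 6.33 on the HFD array and 7.89 on the ND array, a difference of -1.56, next to -1.64 for Gstt1. Gstm7 had 6.54 on the HFD array and 7.69 on the ND array, a difference of -1.15, but its second, dimmer probe set, whose mean was below the floor, gave 0.21. Counted by brightest probe sets, 3 of 3 alpha genes, 2 of 3 theta genes and 1 of 7 mu genes above the floor were past 2-fold on the low side. The alpha count includes Gsta2, which passed the floor through the ND array, so that its direction was set in advance.

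The rest of the family differed less. Gstp1, the pi-class enzyme and also a bright gene, had 12.07 on the HFD array and 12.66 on the ND array, a difference of -0.58. Gstm5 had -0.77, Gstm6 -0.46, Gstm3 -0.23 and Gstm4 -0.15. Mgst2 was higher by 0.63 and Mgst3 differed by -0.37. Gstp3, Gstt4 and Gsto2 lay below the floor. Gstcd, which carries a C-terminal transferase domain, differed by -0.11.

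**Figure D2:**
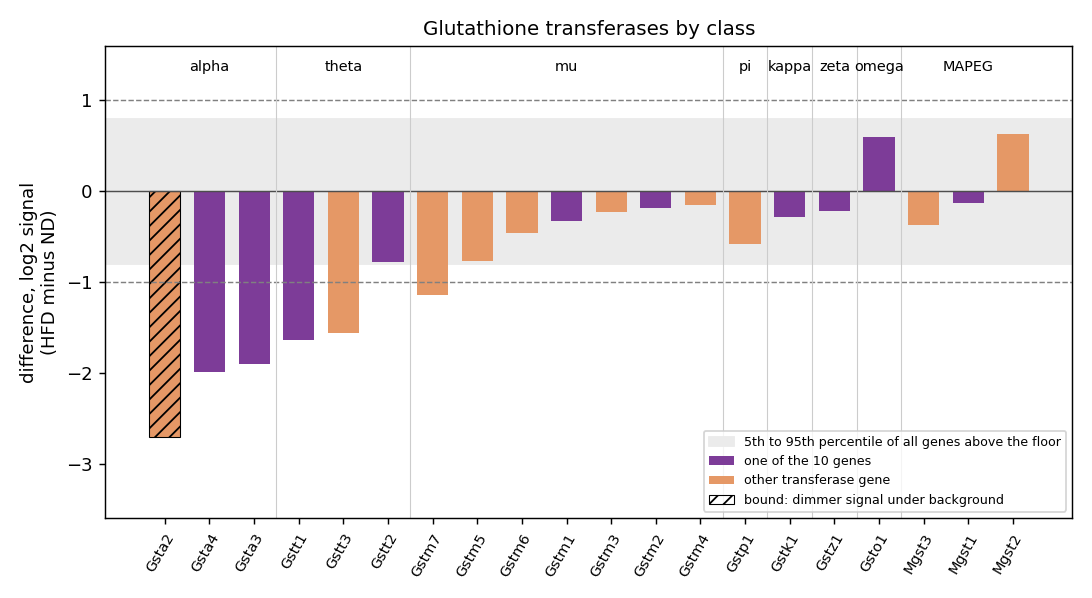
Difference in log2 signal (vertical axis, HFD minus ND) of the 20 transferase genes above the floor, by class; purple bars are the 10 genes followed here and orange bars the other genes, the grey band spans the 5th to the 95th percentile of all genes (-0.80 to 0.79) and dashed lines mark 2-fold. The alpha and theta genes reach farthest down, Gsto1 and Mgst2 point up, and the hatched bar of Gsta2 shows a bound (-2.71), since its signal on the HFD array was under background.

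Several transferase genes sit next to each other in the RefSeq gene order (protein-coding genes only). On chromosome 10 the genes Gstt3, Gstt1, Gstt4 and Gstt2 follow each other, with -1.56, -1.64, a level below the floor and -0.78. On chromosome 3 the 7 mu genes form an unbroken run in the order Gstm5, Gstm7, Gstm6, Gstm3, Gstm2, Gstm1 and Gstm4, and the differences ran from -1.15 for Gstm7 to -0.15 for Gstm4. Gsta3 lies on chromosome 1, away from Gsta4 and Gsta2 on chromosome 9.

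Some relatives take part in making lipid mediators, and of 4 such genes 3 had a positive difference and 1, Ptges, a negative one. Hpgds, the glutathione-dependent synthase of prostaglandin D in the transferase fold, had 6.96 on the HFD array and 4.58, under background, on the ND array, and was at least 4.05-fold higher. Hpgds passed the floor through the HFD array, so its direction was set in advance. Ltc4s, which joins glutathione to leukotriene A, had 11.97 on the HFD array and 10.82 on the ND array, a difference of 1.15, and Alox5ap, its helper in leukotriene synthesis, differed by 0.97. Ptges, the inducible prostaglandin E synthase of the MAPEG family, went the other way, with 7.60 on the HFD array and 9.16 on the ND array, a difference of -1.56 that its other probe sets shared in sign (-1.35 and -1.22). With these 4 genes and Gstcd, the 10 further transferases already counted make 15 relatives above the floor, with a median of -0.37.

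Genes that supply glutathione did not reach 2-fold in either direction. Of 8 such genes 7 passed the floor, 3 with a positive and 4 with a negative difference, and their median was -0.09. Gclc, the catalytic subunit of the rate-limiting ligase, had 8.11 on the HFD array and 8.68 on the ND array, a difference of -0.57, while its regulatory partner Gclm had 9.31 and 8.88 in that order, a difference of 0.43. Cbs, of the route from methionine to cysteine, had -0.60, and the glutathione reductase Gsr had -0.21. Among 9 genes of glutathione breakdown the median was 0.05 and 0 reached 2-fold, with Ggct at 0.62, Chac1 at 0.61, Ggt6 at 0.47 and the dipeptidase Dpep1 at -0.44.

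Transporters that carry conjugates out of the cell had a median of -0.10 over 5 genes. Abcg2, an efflux pump for many drugs and conjugates, was 1 of 5 at least 2-fold lower, with 8.74 on the HFD array and 10.54 on the ND array, a difference of -1.80. The glutathione conjugate pump Abcc1 had -0.27, Abcc5 -0.10 and Abcc3 0.22. Dehydrogenases and reductases that clear aldehydes by routes other than conjugation had a median of -0.20 over 14 genes, with 9 below 0 and 1 at least 2-fold lower. That gene was Aldh2, the mitochondrial aldehyde dehydrogenase, with 11.31 on the HFD array and 12.42 on the ND array, a difference of -1.11. Aldh7a1 had -0.70, Adh1 -0.65 and the aldose reductase relative Akr1b8 0.58.

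NRF2, encoded by Nfe2l2, is the transcription factor that induces many transferases under oxidative or electrophilic stress, and Keap1 holds it in check. Nfe2l2 had 9.95 on the HFD array and 9.94 on the ND array, and Keap1 had 8.37 and 8.33 in that order. Known targets of NRF2 had a median of 0.10 over 12 genes, 7 above and 5 below 0, and Hmox1, the haem oxygenase, was the 1 gene at least 2-fold higher, with a difference of 1.39. Nqo1, a quinone reductase and a classical target, had 6.19 on the HFD array and 6.78 on the ND array, a difference of -0.59. Srxn1 had 0.40 and the transketolase Tkt -0.66. Gclc and Gclm belong to this list and to that of glutathione supply. Of the sensors and regulators of foreign compounds, 4 of 7 passed the floor with a median of -0.10, among them Arnt at -0.50 and Ahr at -0.20, while Ahrr and the nuclear receptors Nr1i2 and Nr1i3, which induce detoxifying enzymes in liver, lay below the floor.

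Gstz1 and Gstk1 belong to pathways of their own. Of the other enzymes of tyrosine breakdown, which takes place mainly in liver, 3 of 4 were at least 2-fold lower. Hpd and Hgd were under background on the HFD array and were at least 12.4-fold and at least 3.88-fold lower, and Tat had -1.26. Hpd, Hgd and Tat passed the floor through the ND array, so their direction was set in advance. For Tat the HFD value of 5.10 lay over background but under the floor. Fah, the step after Gstz1, had 10.43 on the HFD array and 10.31 on the ND array, a difference of 0.12 beside -0.21 for Gstz1. Of 4 genes, Adipoq itself and those that assemble adiponectin with Gstk1, 0 reached 2-fold and the median was 0.10. Ero1a had 0.33, P4hb 0.13, Erp44 0.07 and Adipoq -0.09.

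**Figure D3:**
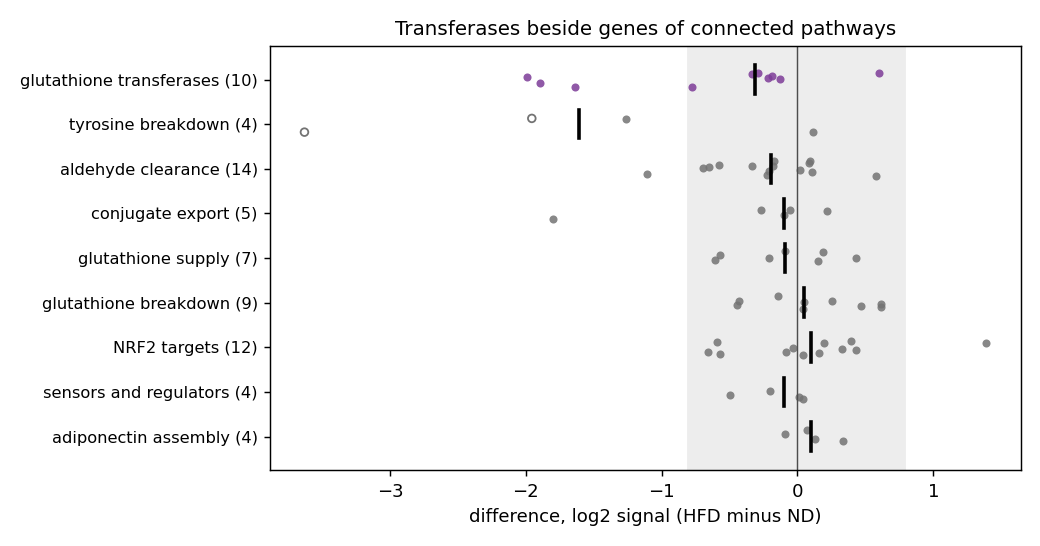
Difference in log2 signal (horizontal axis, HFD minus ND) of the transferase genes and of genes of connected pathways above the floor, 1 point per gene, with the number of genes in brackets, black bars for medians and a grey band from -0.80 to 0.79, the 5th to the 95th percentile of all genes. Open points are bounds, where the dimmer signal was under background and was set to it. The tyrosine breakdown genes lie farthest left with a median of -1.61, and the medians of the lists below them lie between -0.20 and 0.10.

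Markers of other cell types and tissues differed between the 2 pools, and their values are given beside the transferases because liver makes many of the same enzymes. In bulk tissue, fewer cells of a type cannot be told apart from less RNA per cell. All 29 hepatocyte markers above the floor were lower, 27 by 2-fold or more, and their median was -4.02 with signals under background set to background (-4.42 as measured). Alb, serum albumin, had 7.91 on the HFD array and 13.15 on the ND array. Apoa1, a lipoprotein component, had 5.78 on the HFD array and 10.20 on the ND array. Serpina1c had a difference of -6.70, and Cyp3a11 and Fga were under background on the HFD array. The summed linear signal of the list was 10808 on the HFD array and 51093 on the ND array. A single gene carried most of the HFD sum, the cytochrome P450 gene Cyp2e1, with 13.23 on the HFD array and 13.81 on the ND array, a difference of -0.59. Without it, a split made after the values were seen, the sum over 28 markers was 1227 on the HFD array and 36692 on the ND array. On the HFD array 14 of the 29 markers were under background and on the ND array 0 were. Those 14 passed the floor through the ND array, so that a lower value on the HFD array was set in advance for them. The same holds for Ahsg, F2 and Gnmt. Their HFD values (4.99, 5.43 and 4.99) lay over background but under the floor.

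On that same HFD array every one of the 10 transferase genes was above background, the lowest being Gsta4 at 7.71 against a background of 4.96. Of the 29 hepatocyte markers, 25 had a lower difference than Gsta4 and 26 a lower one than Gstt1. The 29 include the 14 under background on the HFD array and Ahsg, F2 and Gnmt, all of which passed the floor through the ND array. Adipocyte markers had a median of -0.04 over 22 genes and ran from -0.74 for the glucose transporter Slc2a4 to 1.08 for leptin, Lep, so that Gsta4, Gsta3, Gstt1 and, by less than the probe set SD, Gstt2 had lower differences than all 22. The summed signal of the list was 178797 on the HFD array and 181308 on the ND array, and 0 of its genes were under background on either. Many of these genes are very bright, and the 6 with a level below 12, a limit set after the values were seen, ran from -0.74 to 0.33 with a median of -0.44. Pparg, the regulator of fat cell differentiation, had -0.47, and Thrsp, a lipogenic gene, had -0.56. The part of liver RNA or of adipocytes in the lower transferase signals was not tested.

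Other marker lists lay on both sides of 0. The median of the pancreas markers was -2.23 with signals under background set to background. Of the 10, 9 were lower by 2-fold or more, and 6 were under background on the HFD array. Those 6 passed the floor through the ND array, so that their direction was set in advance. Cpb1, Cela2a and Cpa1 were among these 6, while Cela1 had 0.95. For skeletal muscle the median was -1.74, and 9 of 11 markers were lower by 2-fold or more, among them Myh4 (-2.72), Tnnc2 (-2.33) and Mb (-2.31). For smooth muscle it was -1.29 with 4 of 8 as far down and Cnn1 at -3.54, against Synpo2 at 1.48. For mesothelium it was -1.13 with 4 of 7 as far down, led by Krt8 (-1.46), and endothelial markers had -0.53 with 0 of 11 past 2-fold, led by Emcn (-0.76). Progenitor and fibroblast markers had -0.25 over 9 genes, with Pdgfra at -0.49 and Lum at 0.65. Gsta4 had a lower difference than every marker of mesothelium, endothelium and progenitors, and lay inside the range of the pancreas and both muscle lists.

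All 19 macrophage markers were higher, 12 by 2-fold or more, and their median was 1.06. Their summed signal was 41016 on the HFD array and 19091 on the ND array. Trem2, a lipid receptor of macrophages, had 2.53 and Cd68 2.30. Gsto1 (0.60) was higher on the same array, as were 4 of the 15 relatives above the floor, Mgst2 (0.63), Hpgds, Ltc4s (1.15) and Alox5ap (0.97). The direction of Hpgds was set in advance. The other 11 relatives were lower, among them Ptges (-1.56). The 5 epididymis markers above the floor were higher by 2-fold or more, and 4 of these, among them Lcn8, Cst12 and Lcn9, were under background on the ND array, so that they passed the floor through the HFD array and their differences are bounds. With those signals set to background the median was 3.79. The part of macrophages or of epididymis in these transferase signals was not tested.

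**Figure D4:**
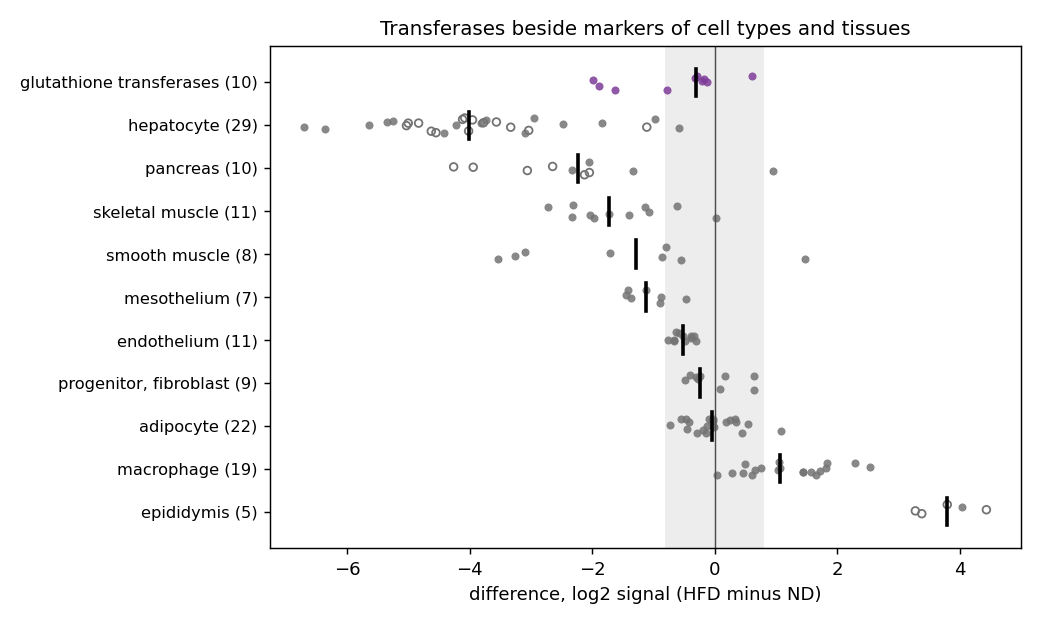
Difference in log2 signal (horizontal axis, HFD minus ND) of the 10 transferase genes and of marker genes above the floor for 10 cell types and tissues, 1 point per gene, with the number of genes in brackets, black bars for medians and a grey band from the 5th to the 95th percentile of all genes (-0.80 to 0.79). Open points are bounds, where the dimmer signal was set to background. The hepatocyte markers center on -4.02, the adipocyte markers on -0.04 and the macrophage markers on 1.06, and 4 of the transferases (Gsta4, Gsta3, Gstt1 and Gstt2) lie left of every adipocyte marker.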

How the data were processed

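RNA of adipose tissue pooled from 3 mice per diet was measured on 2 Affymetrix arrays. The deposited values are log2 signals of 45101 probe sets that the authors computed by RMA, which corrects background, normalizes the arrays to each other and summarises probes, per the submitters' processing notes (no version named). That the scale is log2 was read from the values. Normalization between arrays removes any difference in total RNA. Gene symbols came from the platform annotation. Those with 1 symbol (34945) were used, and 932 with several symbols, 9160 with none and 64 controls were left out. All 10 transferase symbols matched.

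Differences, counts past 2-fold and medians were computed with pandas 2.3.3 and numpy 2.4.6. Precision is limited by the number of arrays, and no p-value is given. On simulated data for the HFD to ND comparison, the 2-fold limit recovered 200 of 200 genes shifted by 2 on the log2 scale among 11778. It called 10 that were not shifted. The noise had an SD of 0.3 in the difference and was independent between genes, so recovery of so large a shift was nearly certain. The choice of probe sets, the floor and the bounds were not simulated. The noise does not stand for differences between animals or pools, so the 10 calls give no error rate for the arrays. The transferase genes, the other lists and the rule for named genes (all 10 genes, all further transferases and relatives above the floor, and in each other list the 3 farthest in the direction of its median and the 1 farthest the other way, plus Alb, Apoa1, Adipoq, Nfe2l2, Keap1, Nqo1 and Gclc) were chosen with earlier results of these data known. Where the dimmer signal was under background, the fold is a bound against the 95th percentile of background, written "at least". Alternatives changed the probe set, the floor, the scaling, the treatment of signals under background and the fold.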

Additional observations from a re-analysis of the deposited data

How the results depend on the processing

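No paired analysis was possible because each diet has 1 array. The same 3 genes, Gsta3, Gsta4 and Gstt1, were at least 2-fold lower under all 8 alternatives that kept the 2-fold limit, and 0 genes were at least 2-fold higher. With a limit of 1.5-fold, 4 were lower (Gstt2 joined them, against 8.52% of all genes) and 1, Gsto1, was higher (8.20% of all genes). Over the alternatives Gsta4 ran from -2.00 to -1.92, Gsta3 from -1.90 to -1.78 and Gstt1 from -1.66 to -1.56. Of 78 recomputed differences of single genes, 52 were identical to the reported value, since those settings left the gene's probe set and its values as they were. Of the other 26, 25 moved by less than the probe set SD. The exception was Mgst1, which had 0.29 with the median of its probe sets, 1 of which lies under background. After leaving out probe sets able to match more than 1 transcript, Gstz1 and Mgst1 could not be compared. Signal over background limits Gsta2, Hpgds, Hpd and Hgd to bounds.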

Other observations

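Probe sets of the same gene gave opposite signs in 2 transferase genes. The second probe set of Mgst1 had a log2 signal of 3.84 on the HFD array and 3.13 on the ND array, a difference of 0.71 with both signals under background, whereas its first had -0.13. The second probe set of Gstm7 had 5.37 on the HFD array and 5.16 on the ND array, a difference of 0.21, whereas its first had -1.15.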
